A study of Rattus norvegicus with 10 samples.

Results

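Nde1, Wfdc1, Efhd1, Dhrs7c, Dcxr, Mlf1 and Klhl33 are 7 genes of varied function selected on their array values, because these were much lower in the hearts of aged rats than in those of adult rats. No numerical limit went with that choice. Each is read by 1 probe set, a group of short probes against 1 transcript, so the 7 genes rest on 7 of the 31042 probe sets and 7 of the 14217 named genes of the table, and no second probe set checks any of them. Since the choice was made on the age contrast, their age differences are given as a description and were not tested.

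The samples were hearts from males of the inbred rat strain Fischer-344, kept on standard chow, with no genetic change or drug in either group. There were 5 adult samples at 6 months (titled Young, replicates 1, 2, 3, 4 and 6) and 5 aged samples at 24 months (titled Old, replicates 2 to 6), each on 1 Affymetrix Rat Genome array. The labels do not say outright that each array is a separate animal, so any p-value measures the spread between these samples. The sample protocols speak of whole hearts and the series text of ventricles.

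Most of the 7 proteins are thinly characterised in heart. Dhrs7c is a short-chain dehydrogenase of the sarcoplasmic reticulum, the calcium store of striated muscle cells, and Dcxr is a dehydrogenase of the same family that reduces L-xylulose and reactive dicarbonyls. Efhd1 is a calcium-binding protein of the mitochondrial inner membrane. Klhl33 belongs to the kelch proteins, many of which bring substrates to Cul3 ubiquitin ligases. Nde1 links the motor dynein to its regulator Lis1 and is best known from dividing cells and neurons, Wfdc1 is a secreted protein with a whey acidic protein (WAP) domain, and Mlf1 is a protein that shuttles between nucleus and cytoplasm and was first met in a leukaemia fusion gene. The set is set beside Myh6, the gene of alpha myosin heavy chain, the fast myosin of rodent ventricles, and Ppargc1a, which encodes PGC-1 alpha, a coactivator of mitochondrial biogenesis.

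RefSeq promoter windows, 250 bases before and 50 bases after the gene's start on assembly GRCr8, were found for 5 of the 7 genes and not for Wfdc1 or Dhrs7c. The windows of Nde1, Dcxr and Efhd1 are shown because they span the contrast in base composition among genes that were lower at the same age. Capitals mark CG pairs.
Nde1 (chr10:1383386-1383685, minus strand): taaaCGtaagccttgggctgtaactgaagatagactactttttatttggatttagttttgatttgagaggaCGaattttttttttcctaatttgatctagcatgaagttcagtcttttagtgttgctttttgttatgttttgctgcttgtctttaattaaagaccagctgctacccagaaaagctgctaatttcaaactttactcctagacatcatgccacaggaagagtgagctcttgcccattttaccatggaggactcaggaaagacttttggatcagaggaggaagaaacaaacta
Dcxr (chr10:106506570-106506869, minus strand): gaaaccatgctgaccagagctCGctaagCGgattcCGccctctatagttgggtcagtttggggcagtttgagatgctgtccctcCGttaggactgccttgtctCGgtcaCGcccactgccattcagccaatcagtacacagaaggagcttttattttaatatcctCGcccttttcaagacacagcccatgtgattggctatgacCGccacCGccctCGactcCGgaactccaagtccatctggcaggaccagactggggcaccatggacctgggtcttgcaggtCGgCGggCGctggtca
Efhd1 (chr9:95385927-95386226, plus strand): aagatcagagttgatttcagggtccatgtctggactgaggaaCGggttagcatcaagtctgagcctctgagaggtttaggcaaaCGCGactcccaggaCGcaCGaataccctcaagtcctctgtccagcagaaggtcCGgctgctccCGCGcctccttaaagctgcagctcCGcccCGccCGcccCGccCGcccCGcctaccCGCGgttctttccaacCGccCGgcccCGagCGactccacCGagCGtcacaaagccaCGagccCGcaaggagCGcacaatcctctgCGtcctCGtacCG
The Nde1 window held 2 CG pairs and 37.0% G or C, that of Dcxr 14 pairs and 56.3%, and that of Efhd1 28 pairs and 63.3%. The last 50 bases of the Nde1 window begin with the letters atg, those of a start codon. The start used for Nde1 may therefore be that of the coding sequence, and its window is not shown to be a promoter. Klhl33 resembled Nde1 (2 pairs, 39.3%) and Mlf1 resembled Efhd1 (22 pairs, 61.3%), against medians of 7 pairs and 51.7% over all 33469 windows. Exact matches to 5 short motifs were sought on both strands. They were the nuclear receptor binding element AAGGTCA (in 4.61% of all windows), the E-box CACGTG (6.42%), the GATA motif AGATAA (11.58%), CAAGTG, a motif of Nkx2-5 (14.06%), and the Mef2 motif CTANNNNTAG (3.84%). None of the 5 motifs had a match in any of these 5 windows, which says only that those letters are not there.

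On the arrays, each value is a log2 difference from the probe set's own median over all 10 arrays (the labels do not state the log base), so the values carry no absolute level and the genes cannot be ranked by abundance. Centring on the median also makes the lowest adult and the highest aged value near mirror images wherever the ages do not overlap. The median of an array ran from -0.0061 to 0.0093 in adults and from -0.0097 to 0.0038 in aged samples, and the SD over all probe sets from 0.121 to 0.206, with the widest spread on aged replicates 6 and 3. The tissue label was set beside a rough class of brightness before centring, read from the rounding of the values. All 13 measured cardiomyocyte markers reached the brightest class, as against 19.4% of all named genes, and 8 of 10 fibroblast, 5 of 11 endothelial, 3 of 12 macrophage and 0 of 13 lymphocyte markers did. The class depends on the probe set as well as on the RNA, so it does not rank genes or cell types. Dhrs7c and Mlf1 were in that brightest class, the other 5 genes in the class below it, and none of the 7 in the dimmest.

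Every aged array lay below every adult array for each of the 7 genes, a separation that 3.65% of all probe sets showed in the same direction. The mean was at least 1.51-fold lower in aged hearts for each, and 0.528% of all probe sets were at least 1.5-fold lower. Nothing is read from these counts, since the genes were chosen for the fall. In a bulk sample, fewer cells of a type and less RNA per cell cannot be told apart.

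**Figure D1:**
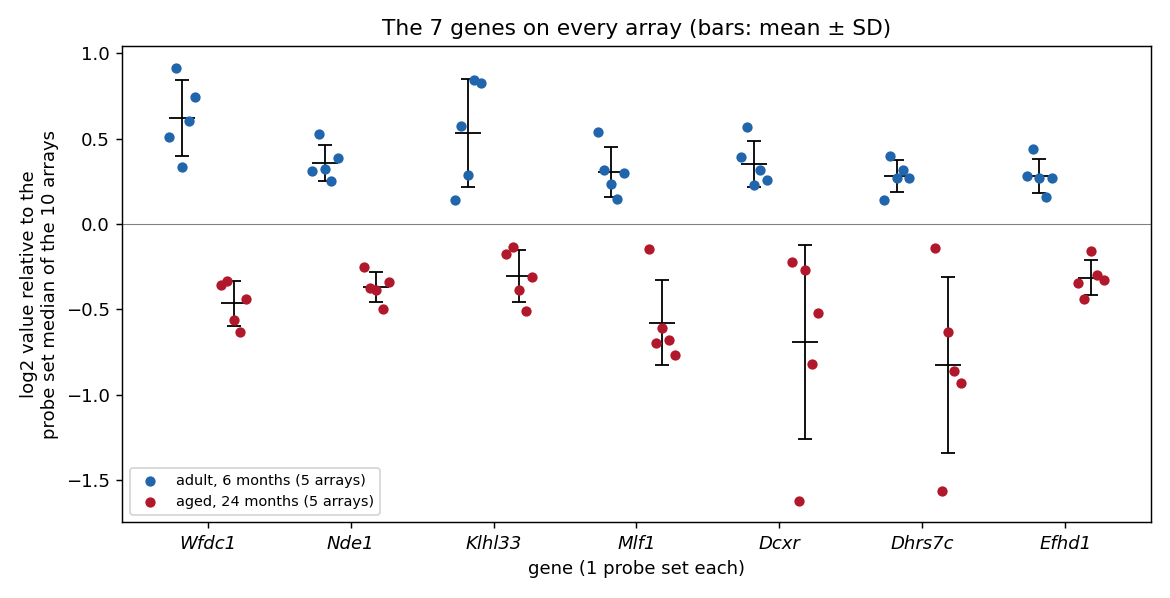
Log2 value of the 7 genes (1 probe set each) on every array, adult in blue and aged in red, with bars at the mean ± SD of 5 arrays. All aged points lie below all adult points, and the aged points of Dcxr and Dhrs7c spread from -0.23 and -0.14 down to -1.62 and -1.56.

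Dhrs7c, the dehydrogenase of the sarcoplasmic reticulum, gave 0.14, 0.40, 0.27, 0.32 and 0.27 on adult replicates 1, 2, 3, 4 and 6. On aged replicates 2 to 6 it gave -0.14, -1.56, -0.63, -0.86 and -0.93. The adult arrays were tightly grouped (0.28 ± 0.09, SD, n = 5) and the aged arrays wide apart (-0.83 ± 0.52, SD, n = 5), an SD 5.48 times that of the adults. The mean was lower by -1.10 on the log2 scale, or 2.15-fold, the third lowest difference among the named genes. The gap between the nearest arrays of the 2 ages was 0.28, and it was set by adult replicate 1 and aged replicate 2. Without aged replicate 3, the lowest array, the difference was -0.92.

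Dcxr, the xylulose and dicarbonyl reductase, had the same shape. Its adult values were 0.39, 0.57, 0.23, 0.31 and 0.26 (0.35 ± 0.14, SD, n = 5). Its aged values were -0.23, -1.62, -0.27, -0.82 and -0.52 (-0.69 ± 0.57, SD, n = 5), in the order of replicates given above. Aged replicate 3 was again the lowest and aged replicate 2 the highest of the aged arrays, and the aged SD was 4.20 times the adult one. The mean was 2.06-fold lower (log2 -1.04), with a gap of 0.45 between the ages. Without aged replicate 3 the difference was -0.81, its smallest value under any array left out.

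Efhd1, the mitochondrial calcium-binding protein, had the smallest difference and a narrow spread at both ages. The adult values were 0.28, 0.44, 0.27, 0.16 and 0.27 (0.28 ± 0.10, SD, n = 5). The aged values were -0.35, -0.44, -0.16, -0.30 and -0.33 (-0.31 ± 0.10, SD, n = 5). The 1.51-fold lower mean (log2 -0.60) was 5.93 times the pooled SD of the ages, and the gap of 0.32 lay between adult replicate 4 and aged replicate 4.

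Klhl33, the kelch protein, was the opposite of Dhrs7c and Dcxr in its spread. Adult values were 0.14, 0.57, 0.29, 0.84 and 0.82 (0.53 ± 0.32, SD, n = 5), and aged values were -0.18, -0.14, -0.39, -0.51 and -0.31 (-0.30 ± 0.15, SD, n = 5). Adult replicates 4 and 6 were high and adult replicate 1 was low, close to the aged arrays, and the aged SD was 0.483 times the adult one. Its mean was 1.79-fold lower (log2 -0.84) and its gap, 0.28, was about as narrow as that of Dhrs7c.

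Nde1, the dynein regulator, was the most cleanly separated of the 7 against its own spread. The adult values were 0.31, 0.53, 0.32, 0.25 and 0.38 (0.36 ± 0.11, SD, n = 5), and the aged values -0.25, -0.38, -0.38, -0.50 and -0.34 (-0.37 ± 0.09, SD, n = 5). The mean was 1.66-fold lower (log2 -0.73), or 7.54 times the pooled SD. By size of difference Nde1 was number 30 from the lowest of all named genes, and by width of the gap (0.51) it was number 4.

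Wfdc1, the secreted WAP-domain protein, had the widest gap of the 7. Adult values were 0.51, 0.92, 0.33, 0.60 and 0.74 (0.62 ± 0.22, SD, n = 5), and aged values were -0.36, -0.33, -0.56, -0.63 and -0.44 (-0.47 ± 0.13, SD, n = 5). The highest aged array, replicate 3, was 0.66 below the lowest adult array, also a replicate 3, and in all named genes only Myh6 had a wider gap in this direction. The mean was 2.12-fold lower (log2 -1.09).

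Mlf1, the shuttling protein, had 4 aged arrays close together and 1 apart. Adult values were 0.54, 0.32, 0.23, 0.14 and 0.30 (0.31 ± 0.15, SD, n = 5), and aged values were -0.14, -0.70, -0.61, -0.68 and -0.77 (-0.58 ± 0.25, SD, n = 5). Aged replicate 2 at -0.14 stood between the adults and the other aged arrays, and the gap of 0.29 ran from it to adult replicate 4. The mean was 1.85-fold lower (log2 -0.89), and without aged replicate 2 the difference was -0.995.

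The 2 genes set beside them were lower in aged hearts too, by amounts that depended on the probe set. For Myh6 the probe sets gave -2.02 and -0.46, with no overlap of the ages in either, and their mean gave -1.24. For Ppargc1a the 3 probe sets gave -1.16, -0.52 and -0.17, all with overlapping ages, and their mean gave -0.62. On both Myh6 probe sets aged replicate 3 was the lowest array (-1.97 and -0.63), as in Dhrs7c and Dcxr. On the Ppargc1a probe sets the lowest aged array was replicate 5 (-1.19), replicate 3 (-0.74) and replicate 5 (-0.22).

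Whether the genes varied together from heart to heart was asked within the ages, where the age difference used to pick them plays no part. Each value was taken as its deviation from the mean of its own age, and correlations were computed over the 10 arrays for 35 pairs, 21 among the 7 genes, 7 with Myh6 and 7 with Ppargc1a. No correlation pooled over the ages was used, because the 2 ages form separate clusters in every one of the 7 genes. By the exact two-sided permutation test, in which arrays were exchanged within each age (14400 arrangements, smallest possible p 6.94e-05), 0 of the 35 pairs passed after Benjamini-Hochberg adjustment. At an unadjusted p under 0.05 there were 4 pairs by Pearson's r and 2 by Spearman's rho, of which 0 passed adjustment.

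The 3 highest Pearson correlations were those among Dcxr, Dhrs7c and Myh6, and 0 of these 3 pairs passed adjustment. Dcxr with Myh6 had the highest correlation of all pairs (r = 0.91, exact permutation p = 0.00764, adjusted p = 0.163; rho = 0.73, exact permutation p = 0.0815, adjusted 0.576). Dhrs7c with Myh6 gave r = 0.87 (exact permutation p = 0.0156, adjusted p = 0.182; rho = 0.78, exact permutation p = 0.0451, adjusted 0.576). Dhrs7c with Dcxr gave r = 0.89 (exact permutation p = 0.00931, adjusted p = 0.163; rho = 0.71, exact permutation p = 0.0823, adjusted 0.576). Without the 2 arrays farthest from the median of the first-named gene, r was 0.75, 0.73 and 0.58. Aged replicate 3 was low in all 3 genes, by -0.93 in Dcxr, -0.74 in Dhrs7c and -0.57 in Myh6 from the aged mean. Aged replicate 2 was high by 0.47, 0.69 and 0.36. Adult deviations were smaller, from -0.13 to 0.21 in Dcxr, -0.14 to 0.12 in Dhrs7c and -0.16 to 0.10 in Myh6. These correlations therefore rest mostly on the aged arrays, and none was computed in adults alone. With quantile normalization, which narrows arrays of wide spread such as aged replicate 3, r was 0.48, 0.37 and 0.64, so the size of these relations depends on the scaling.

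Nde1 and Wfdc1, the genes with the widest gaps between the ages, formed the other pair (r = 0.75, exact permutation p = 0.0246, adjusted p = 0.215; rho = 0.77, exact permutation p = 0.0201, adjusted 0.576). Adult replicate 2 was the highest adult array in both, and aged replicate 5 the lowest aged array in both. Without the 2 arrays farthest from the median of Nde1, r was 0.50. Wfdc1 with Klhl33 gave r = 0.66 (exact permutation p = 0.0994, adjusted p = 0.571; rho = 0.70, exact permutation p = 0.0654, adjusted 0.576), and r = 0.77 without the 2 arrays farthest from the median of Wfdc1. Neither Nde1 nor Wfdc1 gave a correlation with Myh6 past the unadjusted threshold (r = 0.30, exact permutation p = 0.428; r = -0.12, exact permutation p = 0.689).

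The correlations with Ppargc1a ran from -0.24 for Wfdc1 to 0.64 for Dhrs7c, with a median of 0.09, and 0 of 7 had an unadjusted p under 0.05 by either measure. Over all 35 pairs r ran from -0.36, for Efhd1 with Klhl33, to 0.91, and 27 were positive. With 10 arrays these are wide ranges, and a p that misses the threshold does not show that genes varied apart.

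**Figure D2:**
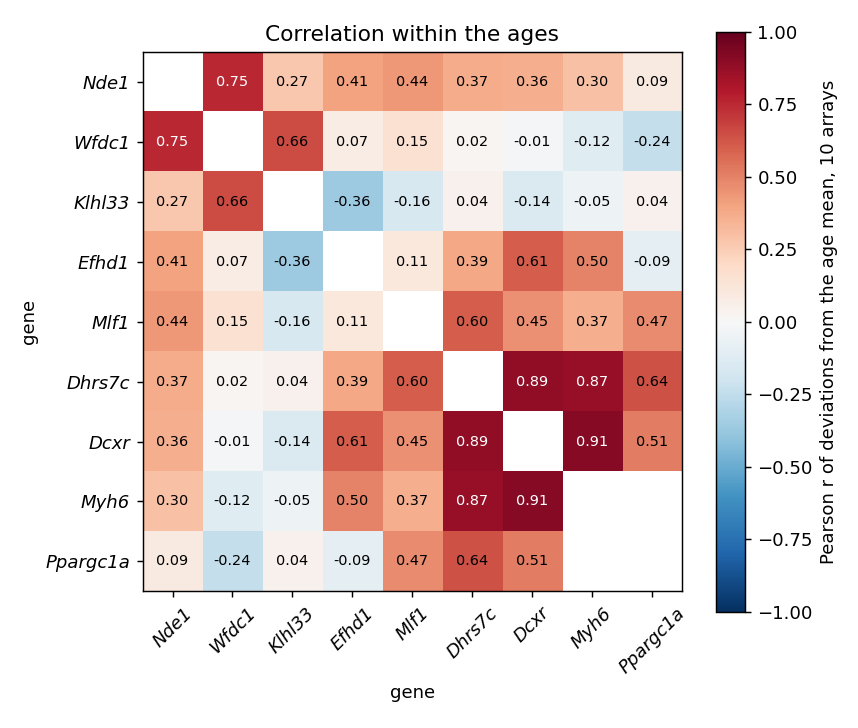
Pearson r between genes, computed on deviations from the age mean over 10 arrays; red is positive, blue negative, and blank cells were not computed. Dcxr, Dhrs7c and Myh6 form a block of 0.87 to 0.91 that rests mostly on the aged arrays. Nde1 with Wfdc1 gives 0.75, and 0 of the 35 pairs passed after adjustment.

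**Figure D3:**
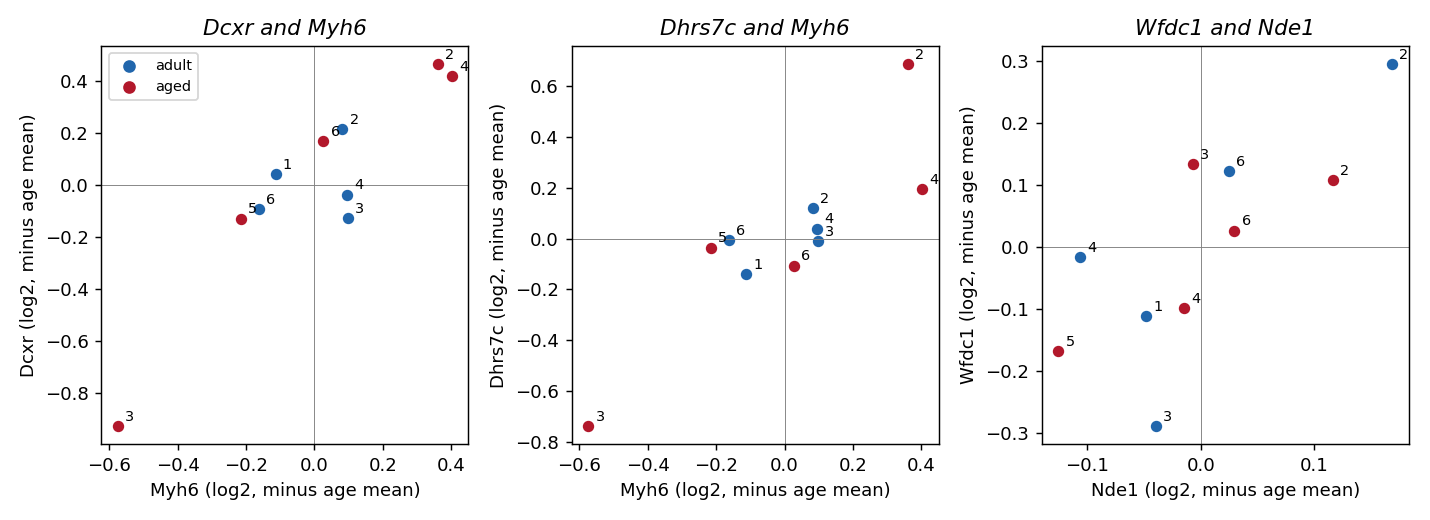
Deviation of each array from the mean of its age in log2 units, for Dcxr and Dhrs7c against Myh6 and for Wfdc1 against Nde1, with replicate numbers beside the points (adult blue, aged red). Aged replicate 3 is at the bottom left of the first 2 panels, at -0.57 in Myh6, and lies near the middle in Nde1.

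Over all 10 arrays, with the age difference included, the named genes most like each of the 7 by Pearson's r were found as a description, with no test, since any gene that differs in the same way with age will score high. For Dhrs7c they were Gatd3a (0.986), Uqcc1 (0.984) and Uqcrc1 (0.983), the latter pair an assembly factor and a core subunit of respiratory complex III. For Dcxr they were Lims2 (0.987), Cyp27a1 (0.983) and Mtres1 (0.982). Nde1 and Wfdc1 were in each other's first 3 (0.982), and both had Gucd1 there (0.984 and 0.981). The third was Slc4a3, an anion exchanger gene of heart, for Nde1 (0.975), and Rcor2 for Wfdc1 (0.966). For Efhd1 they were Akt1 (0.988), Tmem41a (0.981) and Itga7 (0.978), a muscle integrin gene. For Mlf1 they were Ppp1r14c (0.991), Akr7a2 (0.980) and Trim45 (0.971), and for Klhl33 Speg (0.960), a kinase gene of striated muscle, Prpf38b (0.955) and Zfp653 (0.948).

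Genes that share a compartment, family or partner with the 7 were then examined by limma over all 14217 genes, where 11.9% changed at an adjusted p under 0.05, 6.77% upward and 5.09% downward. The median difference over all genes was -0.0050. Among the neighbours of Dhrs7c in the sarcoplasmic reticulum, 6 of 12 genes fell, 0 rose and 6 did not pass, with a median of -0.30. They included the calcium-binding calsequestrin gene Casq2 (-0.44 ± 0.07 SE, adjusted p = 0.00241) and the junctophilin gene Jph2 (-0.58 ± 0.09 SE, adjusted p = 0.00279), whose protein holds the reticulum to the cell membrane. The calcium release channel gene Ryr2 (-0.55 ± 0.11 SE, adjusted p = 0.00786) and Hrc (-0.53 ± 0.12 SE, adjusted p = 0.0139), a calcium-binding protein of the reticulum, also fell. The mean value of the 12 genes ran from 0.03 to 0.25 over adult arrays and from -0.27 to -0.02 over aged arrays, so the ages did not overlap. The count was 4 without adult replicate 2 or 3 or without aged replicate 5 or 6.

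In the short-chain dehydrogenase family of Dhrs7c and Dcxr, 7 of 41 other genes fell and 3 rose, with a median of -0.04. Pecr, a peroxisomal reductase gene (-0.47 ± 0.06 SE, adjusted p = 0.00164), Dhrs11 (-0.26) and Dhrs4 (-0.21) fell, and Hsd17b12, an enzyme gene of fatty acid elongation, rose (0.38 ± 0.08 SE, adjusted p = 0.0081). Dhrs7, the paralog of Dhrs7c, gave 0.00 ± 0.09 SE (adjusted p = 0.980), and the carbonyl reductase gene Cbr1 gave -0.10 ± 0.31 SE (adjusted p = 0.887), with aged values from -1.02 to 0.85. Without adult replicate 3, 2 of the family fell and 1 rose, without adult replicate 2, 4 fell, and without aged replicate 5, 4 fell and 1 rose. On the 8 arrays whose number occurs at both ages, 2 fell and 1 rose. Dhrs4 lost its call without adult replicate 3 (adjusted p = 0.0506). Of 10 genes of the glucuronate and polyol pathways around Dcxr, 0 fell and 2 rose, with a median of 0.03. These were Ugdh, which makes UDP-glucuronate (0.64 ± 0.12 SE, adjusted p = 0.00592), and the sorbitol dehydrogenase gene Sord (0.19 ± 0.05 SE, adjusted p = 0.0371). The call of Sord was lost without any 1 of adult replicates 1, 2, 4 and 6 and aged replicates 4, 5 and 6 (adjusted p = 0.0680 to 0.0970).

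Efhd2, the paralog of Efhd1, went the other way. It rose by 0.88 ± 0.18 SE (adjusted p = 0.0103), or 1.83-fold, with adult values from -0.64 to -0.08 and aged values from 0.08 to 1.17, so that its ages did not overlap either. Efhd2 is known from immune cells as an actin-binding protein. In the list of mitochondrial calcium and EF-hand proteins it belongs to, 4 of 18 genes fell and 2 rose, with a median of -0.05. Those that fell with the smallest p were Rhot2, which anchors mitochondria to motors (-0.37 ± 0.06 SE, adjusted p = 0.00438), and the aspartate-glutamate carrier gene Slc25a12 (-0.39 ± 0.09 SE, adjusted p = 0.0169). The ATP-magnesium carrier gene Slc25a24 rose (0.49 ± 0.12 SE, adjusted p = 0.0175). The number that fell was 2 without adult replicate 1 or without aged replicate 5 or 6.

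The lists around Klhl33, Nde1, Wfdc1 and Mlf1 are read against the same 6.77% upward and 5.09% downward over all genes, with no test of the lists themselves. Of 36 kelch and Cul3 ligase genes beside Klhl33, 3 fell (Klhl23 by -0.46, Klhl21 by -0.28 and Klhl30 by -0.37) and 1 rose (Klhl2 by 0.27), with a median of -0.05, and the muscle gene Klhl41 gave 0.15 ± 0.13 SE (adjusted p = 0.499). The number that fell was 5 without aged replicate 2, and 2 rose without adult replicate 4. On the 8 arrays whose number occurs at both ages 2 fell and 0 rose, and Klhl30 and Klhl2 did not pass. Of 18 dynein, dynactin and NudE genes beside Nde1, 0 fell and 2 rose, Dynlt1 (0.48) and Dync1i2 (0.28), both dynein subunits, with a median of 0.04. The closest relative, Ndel1, gave 0.11 ± 0.07 SE (adjusted p = 0.313). Dync1i2 lost its call without any 1 of adult replicates 2, 3 and 6 and aged replicates 3, 4, 5 and 6 (adjusted p = 0.0513 to 0.0973), which left 1 that rose, and 3 rose without adult replicate 4. With each gene read by its probe set of largest SD, 2 of this list fell. Of 8 other WAP-domain genes, 0 passed limma and 2 had an unadjusted p under 0.05, with a median of -0.04, and Wfdc2 gave 0.09 ± 0.06 SE (adjusted p = 0.399). Of 11 genes listed as relatives or partners of Mlf1, 2 rose, the 14-3-3 genes Ywhaq (0.35) and Ywhaz (0.41), and 1 fell, the cell cycle inhibitor gene Cdkn1b (-0.27), with a median of -0.01. Mlf2 gave -0.11 ± 0.06 SE (adjusted p = 0.251), and with the probe sets of largest SD 2 of the list fell.

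**Figure D4:**
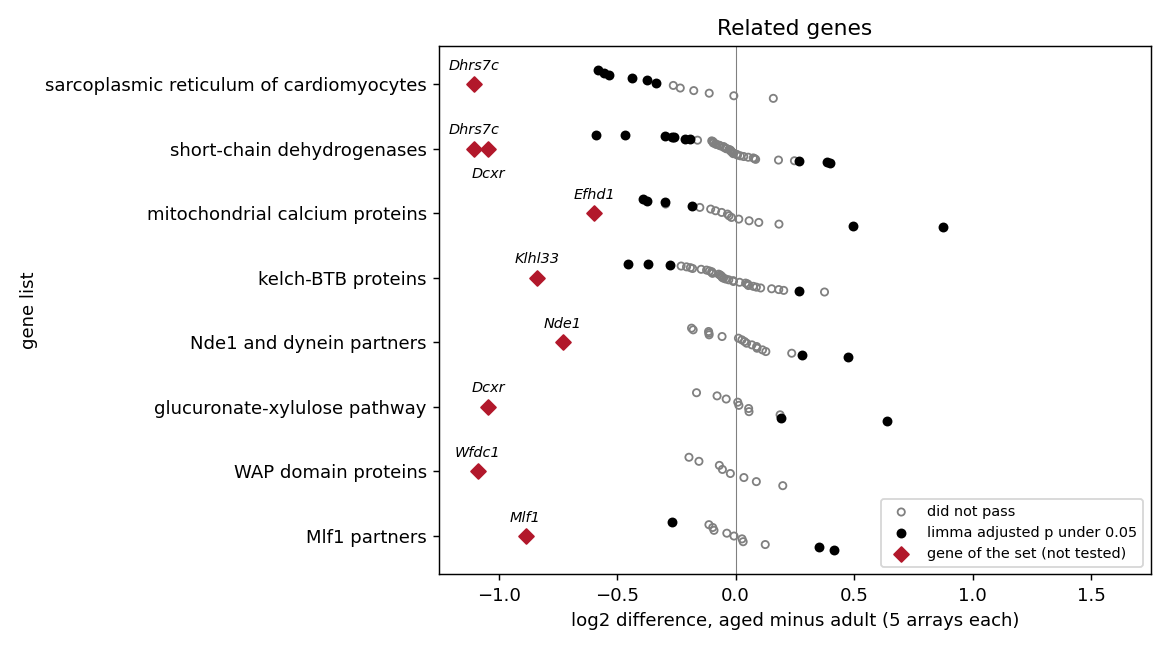
Log2 difference, aged minus adult, of related genes by list (open: did not pass; filled: limma adjusted p under 0.05), with the 7 chosen genes as red diamonds that were not tested. The sarcoplasmic reticulum list lies mostly to the left, with 6 of 12 genes fallen, and Efhd2 is the filled point farthest right, at 0.88.

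Markers of other cells moved over the same arrays. Their counts, taken on all 10 arrays only, stand beside 6.77% of all genes upward and 5.09% downward. The lists themselves were not tested. Macrophage markers rose in 6 of 12 genes, with mean values of -0.42 to 0.01 in adults and 0.02 to 1.03 in aged samples, and fibroblast markers in 5 of 10, with -0.43 to -0.01 and 0.04 to 0.52. Lymphocyte markers rose in 2 of 13 (-0.33 to 0.02 and 0.07 to 0.92), the granzyme genes Gzma and Gzmb. The highest value, 0.92, was that of aged replicate 3, where Dcxr, Dhrs7c and Myh6 were lowest. The list was split on that array, so its mean does not speak for lymphocytes in general. Gzma (3.38), Gzmb (2.23), Prf1 (2.55) and Nkg7 (1.87) had their highest values there. T cell genes went both ways on it. Lck (1.57), Cd8a (0.85) and Cd2 (0.29) had their highest values, while Cd3e (-0.22) and Cd3g (-0.46) had their lowest. Atrial markers rose in 2 of 8 (-0.54 to -0.06 and 0.04 to 0.35), Nppa (2.69) and Myl7 (1.45). The other 6 did not pass, and 3 of the 8 had a lower mean in aged samples. Myl7 itself overlapped between the ages, with 0.55 in adult replicate 6. Cardiomyocyte markers overlapped between the ages (-0.02 to 0.14 and -0.14 to 0.03) and were lowest in aged replicate 3. Of 13, 3 fell (Ryr2, Atp2a2 and Ckm) and 1 rose (Myh7). Ryr2, Atp2a2 and Pln are also in the sarcoplasmic reticulum list, so the 2 lists are not independent. Endothelial markers rose in 2 of 11, Vwf and Tek, and their mean values did not overlap (-0.09 to 0.02 and 0.03 to 0.19). The other 9 did not pass, and 5 of the 11 had a lower mean in aged samples. Smooth muscle and pericyte markers fell in 2 of 10, Smtn and Des, while Acta2, Myh11, Tagln and Cnn1 were among those that did not pass. The mean values of this list overlapped between the ages (-0.12 to 0.14 and -0.12 to 0.07). Of its 10 genes, 5 had a lower mean in aged samples. Of 9 skeletal muscle markers 0 passed limma and 2 had an unadjusted p under 0.05. The part of these cell types in the lower values of the 7 genes was not tested.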

How the data were processed

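RNA of 10 heart samples was hybridised to the Affymetrix Rat Genome array after 2 rounds of cDNA synthesis and biotin labelling, per the labels' protocols. The authors deposited 1 signed log value per probe set and array, used here as log2 values; the log base was inferred from the rounding of the values. For the software, background correction and normalization, nothing is given in the sources used here. Each row of the table has its median at 0. Names come from the platform annotation, with symbols updated by identifier from RefSeq (GRCr8), and 20758 of 20826 single-gene probe sets matched. Genes are the mean of their probe sets. Of the 31042 probe sets, 436 listed several genes and 9780 none; the table holds 0 Affymetrix controls, so RNA quality was not measured.

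The ages were compared with limma 3.58.1 in R 4.3.3 (Benjamini-Hochberg, threshold 0.05). Correlations, drawings and tables used Python 3.11.15, numpy 2.4.6, pandas 2.3.3 and matplotlib 3.10.9. Both tests were checked on simulated data. The 7 genes, the lists of related genes and the rule for named genes were chosen with earlier results of these data known. Named genes were the 7, Myh6, Ppargc1a, up to 4 genes per related list with the smallest p among those past the threshold, 1 fixed relative for most, and the 3 most similar genes. Alternatives were array centring, quantile normalization, array weights, the probe set of largest SD, each array left out, and a replicate block. Protein sequences were not used here. Array number limits the precision.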

Additional observations from a re-analysis of the deposited data

Results flagged for a closer look

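Among 24 sets of 5 values (12 probe sets at 2 ages), 2 held an array whose distance from the nearest other was more than 0.71 of the whole range, where chance marks about 1 in 20. Mlf1 had a high value in aged replicate 2 (-0.14, at 0.747 of the range). The Ppargc1a probe set of largest difference had a low value in adult replicate 6 (-0.11, at 0.796 of the range).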

How the results depend on the processing

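All 7 genes were lower in aged hearts under each of the 16 alternatives. Nothing is read from that count, because the genes were chosen for the fall. Their ages did not overlap, so leaving out arrays could not reverse the direction. With 1 probe set per gene, the probe set of largest SD changed nothing. With quantile normalization Nde1 gave -0.84 and Wfdc1 -1.33, each moved by more than its spread between arrays. Leaving out 1 array gave 988 to 1994 called genes and 1481 to 2943 called probe sets, against 1686 and 2492 on all arrays. The lowest counts came without adult replicate 3 (988 and 1492) and without aged replicate 5 (1003 and 1481), and the highest without aged replicate 2. Counts also fell by over 1.5 times without adult replicate 2 (1047 and 1553) or aged replicate 6 (1089 and 1618). The replicate block over the 8 arrays whose number occurs at both ages gave 1069 genes and 1640 probe sets. The same arrays without the block, an alternative chosen after seeing the data, gave 929 and 1240. Deviations of same-numbered arrays correlated by 0.035 to 0.145, and 1 of the 4 shared numbers had its own partner as its best match. With so few numbers and such weak correlations, this cannot decide whether the numbers pair the samples. Of 23 named related genes past the threshold, 20 passed without any 1 array. With the replicate block 8 of the 23 did not pass (Dhrs11, Dhrs4, Sord, Dync1i2, Slc25a12, Klhl23, Klhl21 and Cdkn1b, adjusted p 0.0558 to 0.228), and on the same 8 arrays without it 7 did not (Dhrs4, Sord, Slc25a12, Slc25a24, Klhl2, Klhl30 and Hrc, 0.0542 to 0.173). With the block 2 short-chain dehydrogenase genes fell and 2 rose, and 1 kelch gene fell and 1 rose. In the list of mitochondrial calcium and EF-hand proteins 1 fell and 2 rose, with Efhd2 among those that rose. The 35 within-age pairs gave 0 past the threshold under all alternatives run. The cause of these shifts was not tested. Signal over background was not analysed here.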
